A study of Mus musculus with 15 samples.

Results

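Ribosome-protected RNA fragments of mouse eggs and early embryos were examined for 10 genes that encode splicing factors and other RNA-binding proteins of the nucleus. The genes are Luc7l3, Zrsr2, Rbm6, Sart3, Srrm1, Acin1, Nsrp1, Hnrnpu, Safb2 and Sltm. They were found by symbol and are 10 of the 55490 genes of the count table, 5763 of which were seen at least once. The names were chosen with earlier results of these counts known, so the levels below are a description, and the fit across all genes is quoted only to set each gene beside the others.

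Eggs and embryos came from B6D2F1 females whose genotype was either Eif4e1b Het (heterozygous) or Eif4e1b KO (knockout). Eif4e1b encodes a relative, made in eggs, of the translation factor eIF4E that binds the mRNA cap. Females of both genotypes also carried Rpl22 HA, a ribosomal protein with a tag by which ribosomes were pulled down after RNase digestion, and the driver of that allele is not stated in the labels. M2 eggs (arrested in the second meiotic metaphase) gave 2 Het and 2 KO libraries, PN5 zygotes (a late pronuclear stage) 3 Het and 3 KO, and early 2-cell embryos 3 Het and 2 KO, 15 in all. A library was a pool of about 200 eggs or zygotes, and at the early 2-cell stage of about 100 embryos. The genotype is that of the mother, and that of the father is not stated. Nothing in the labels ties libraries to separate females, so p-values cover only the spread among libraries, which may be technical.

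Splicing removes introns from pre-mRNA on the spliceosome, a machine built anew on each intron from small nuclear ribonucleoproteins (snRNPs). U1 recognises the 5′ splice site, U2 and its partners the branch point and 3′ splice site, and the U4/U6.U5 tri-snRNP then joins. SR proteins, with stretches rich in arginine and serine, recruit these parts, and hnRNP and scaffold-attachment proteins coat nuclear RNA and bind chromatin. Fully grown eggs and early zygotes transcribe little and live on stored maternal mRNA, so which of these mRNAs sit on ribosomes bears on how the embryo equips its nucleus before its own genome is switched on.

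Eif4e1b itself (ENSMUSG00000074895) had 0 counts in all 15 libraries, so the counts do not check the genotype labels. The depth limits what could be seen. Protein-coding counts ran from 5997 to 47399 in eggs and zygotes and from 1059 to 7795 in early 2-cell embryos, and were 0.696% to 5.10% of all counts. Levels are percentages of the counts on protein-coding genes in the same library. A value of 0 allows up to 3 counts, which is 0.00633% to 0.050% in a single egg or zygote library and 0.0385% to 0.283% in a single early 2-cell library. Of 13 egg marker genes 7 were at 0 in all 15 libraries, among them Zp1, Zp2 and Zp3, which encode the egg coat, and the other 6 had 136 counts in all. No count fell on 6 sperm markers and 1 count on 6 blood markers. Of 13 cumulus and granulosa markers 6 had counts, 561 of 650 of them on the steroid-producing enzyme Cyp11a1, and Star, Amh and Fshr were at 0.

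The letters from an annotated start of a gene are those that would follow the cap, the structure that eIF4E relatives bind, in an mRNA begun there. They are shown for the pair of genes with the most counts and for Sltm, from RefSeq on GRCm38.p6, with 10 bases before the start in lower case and the first 20 bases from the start in capitals.
Luc7l3, chr11:94321944-94321973, minus strand: ggcgcacggcATGCTGGGAAGGTGCCCGGG
Zrsr2, chrX:163958647-163958676, minus strand: ggcaaggggcGGTGCTAAGGCCCCCGCGAG
Sltm, chr9:70542705-70542734, plus strand: ttgcgctggaGCAGAGTCGGGGGCGTGGTC
A C followed by 4 bases that are each C or T, the start of the mRNAs of ribosomal proteins, was searched for in transcript direction at the first base. It was found at 0 of the 12 starts listed for 9 of the 10 genes, and at 823 of all 32851 starts, 2.51%. The starts used in these eggs and embryos were not measured, and those shown for Luc7l3 and Sltm lie inside the gene bounds given below. The count of CG pairs in the window from 250 bases before to 50 bases after a start had a median of 23 over these 12 starts and 7 over all starts.

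All 10 genes passed the filter on low counts, which a gene can pass through the 1 group where it is high. They held 4906 counts in all, of which Luc7l3 and Zrsr2 held 3766, or 76.8%. Counts of different genes are not compared as levels, since transcript lengths were not used here. The map of counts by gene and library shows a filled row for Luc7l3, a row of high values and zeros for Zrsr2, and scattered values for the others.

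**Figure D1:**
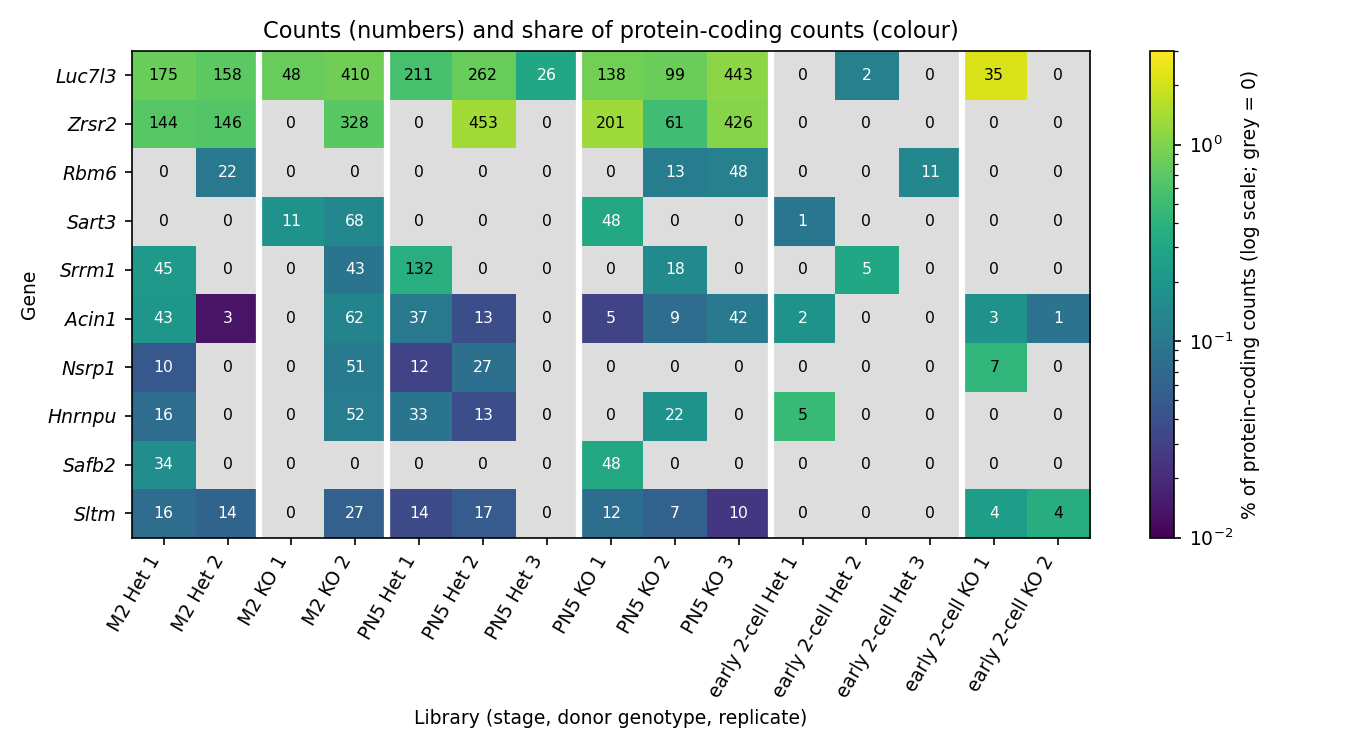
Counts (numbers) and share of protein-coding counts in percent (colour, log scale, grey for 0) of the 10 genes (rows) in the 15 libraries (columns, grouped by stage and donor genotype). Luc7l3 had counts in all 10 egg and zygote libraries, Zrsr2 was either at 61 counts or more or at 0, and the early 2-cell columns are mostly 0.

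The splice site factors come first. Luc7l3 (ENSMUSG00000020863, chromosome 11, 94291073 to 94322329 on GRCm38) encodes an SR-related protein of the LUC7 family, whose yeast member is part of the U1 snRNP. It had 2007 counts in 12 libraries and was at 0.837% and 0.710% in M2 Het and at 0.800% and 0.865% in M2 KO. It was at 0.572%, 0.789% and 0.302% in PN5 Het and at 0.896%, 0.838% and 1.11% in PN5 KO. In these shares the 4 egg libraries were close to each other, and all PN5 KO libraries lay above all PN5 Het libraries. The early 2-cell libraries were at 0, 0.121% and 0 (Het, 2 counts in all) and at 2.16% (35 counts) and 0 (KO).

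Zrsr2 (ENSMUSG00000031370, chromosome X, 163932594 to 163958666) encodes a protein that recognises the 3′ splice site of the rare introns spliced by the minor spliceosome. Its 1759 counts lay in 7 libraries, none with fewer than 61. It was at 0.689% and 0.656% in M2 Het, and at 0 and 0.692% in M2 KO. It was at 0, 1.36% and 0 in PN5 Het and at 1.31%, 0.516% and 1.07% in PN5 KO. All 5 early 2-cell libraries were at 0. The zero of PN5 Het replicate 1 stood among 36920 protein-coding counts, where the share over the 10 egg and zygote libraries would give about 268 counts, far above the limit of 3. Its retrotransposed relative Zrsr1 had 33 counts in 6 libraries, and how reads that match both genes were counted is not stated in the labels. Zrsr2 overlaps Ap1s2, which had 0 counts.

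Rbm6 (ENSMUSG00000032582, chromosome 9, 107773559 to 107873358) encodes an RNA-binding regulator of alternative splicing and lies near its relative Rbm5. It had 94 counts in 4 libraries, at 0.0988% in M2 Het replicate 2, 0.110% and 0.120% in PN5 KO replicates 2 and 3, and 0.141% in early 2-cell Het replicate 3. Each of these groups also held a library at 0. Rbm5 had 24 counts in 7 libraries.

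Sart3 (ENSMUSG00000018974, chromosome 5, 113742444 to 113772400) is the recycling factor of the set, which in human cells helps to join U4 and U6 again after splicing. It was at 0 in both M2 Het libraries and at 0.183% and 0.143% in M2 KO. It was at 0 in all 3 PN5 Het libraries, at 0.312% in PN5 KO replicate 1 and at 0 in the other two PN5 KO libraries. Early 2-cell embryos gave 1 count, in Het replicate 1. With M2 and PN5 pooled, it thus had counts in 3 of 5 KO samples, 1 of them from PN5, and in 0 of 5 Het samples. The share of all genes with such a pooled tally is not given here, so no KO pattern is read from it. In M2 eggs alone, 22.8% of the 425 protein-coding genes tested had genotype groups that did not overlap, in either direction.

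The SR-related genes were measured less evenly. Srrm1 (ENSMUSG00000028809, chromosome 4, 135320484 to 135353277) encodes a splicing coactivator that bridges SR proteins and snRNPs. It had 243 counts in 5 libraries, 132 of them in PN5 Het replicate 1 (0.358%). The other 4 were M2 Het replicate 1 (0.215%), M2 KO replicate 2 (0.0907%), PN5 KO replicate 2 (0.152%) and early 2-cell Het replicate 2 (0.302%, 5 counts).

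Acin1 (ENSMUSG00000022185, chromosome 14, 54642161 to 54686965) encodes acinus, which joins Rnps1 and Sap18 in the ASAP complex beside the exon junction complex. It had 220 counts in 11 libraries, the widest spread after Luc7l3. It was at 0.206% and 0.0135% in M2 Het and at 0 and 0.131% in M2 KO. It was at 0.100%, 0.0392% and 0 in PN5 Het and at 0.0325%, 0.0762% and 0.105% in PN5 KO. The early 2-cell libraries gave 0.189%, 0 and 0 (Het) and 0.185% and 0.0880% (KO), each value above 0 on 1 to 3 counts. The genotypes overlapped at every stage. Of its partners Rnps1 had 6 counts and Sap18 had 0.

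Nsrp1 (ENSMUSG00000037958, chromosome 11, 77044292 to 77078437) encodes a nuclear speckle protein that acts on alternative splice sites. It had 107 counts in 5 libraries. It was at 0.0478% and 0 in M2 Het, 0 and 0.108% in M2 KO, and 0.0325%, 0.0813% and 0 in PN5 Het. It was at 0 in all 3 PN5 KO libraries, and at 0.431% (7 counts) and 0 in early 2-cell KO. Early 2-cell Het was at 0.

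The last group holds proteins with a SAP domain, a fold that binds scaffold-attachment DNA. Acin1, given above, is also on the list of SAP-domain and nuclear matrix proteins. Hnrnpu (ENSMUSG00000039630, chromosome 1, 178321108 to 178338891), which encodes scaffold attachment factor A, had 141 counts in 6 libraries. It was at 0.0765% and 0 in M2 Het, 0 and 0.110% in M2 KO, 0.0894%, 0.0392% and 0 in PN5 Het, and 0, 0.186% and 0 in PN5 KO. Early 2-cell embryos gave 5 counts, in Het replicate 1 (0.472%). The genotypes overlapped at every stage.

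Sltm (ENSMUSG00000032212, chromosome 9, 70542177 to 70592237), a modulator of transcription related to the SAFB proteins, had 125 counts in 10 libraries. It was at 0.0765% and 0.0629% in M2 Het and at 0 and 0.0570% in M2 KO. It was at 0.0379%, 0.0512% and 0 in PN5 Het and at 0.0779%, 0.0593% and 0.0250% in PN5 KO. It was at 0 in all 3 early 2-cell Het libraries and at 0.246% and 0.352% in early 2-cell KO, on 4 counts each. In these shares KO lay below Het without overlap in M2 eggs and above Het without overlap in early 2-cell embryos. Groups did not overlap, in either direction, for 22.8% and 11.1% of the 425 protein-coding genes tested. Safb2 (ENSMUSG00000042625, chromosome 17, 56560971 to 56584675), a corepressor that lies head to head with its close relative Safb, had counts in 2 libraries only, 34 in M2 Het replicate 1 (0.163%) and 48 in PN5 KO replicate 1 (0.312%). Safb had 100 counts in 12 libraries, never more than 21, so the pair were not detected in the same pattern. Reads shared by the 2 genes could not be told apart here.

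Zeros were frequent, also where the depth was enough to expect counts. Of the 100 values that 10 genes give in 10 egg and zygote libraries, 46 were 0. For 40 of these the gene's share over those libraries would have given more than 3 counts. In early 2-cell embryos 38 of 50 values were 0, and for 14 of these 38 that share would have given more than 3 counts. Luc7l3 and Zrsr2 were the genes for which every early 2-cell library was deep enough to expect more than 3. At the egg and zygote share the 5 libraries would hold 108 counts of Luc7l3 and 96.2 of Zrsr2, and they held 37 and 0. The plot of genes with a count against depth shows the 10 genes beside the 425 protein-coding genes tested. PN5 Het replicate 3 had 1 of the 10 genes at 8614 protein-coding counts, and PN5 KO replicate 2 had 7 at 11811. Of the 425 genes, 41.6% had a count in the first of these libraries and 76.5% in the second. With 461 protein-coding genes seen, PN5 Het replicate 3 had the fewest of the 10 egg and zygote libraries, the others 497 to 1679.

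**Figure D2:**
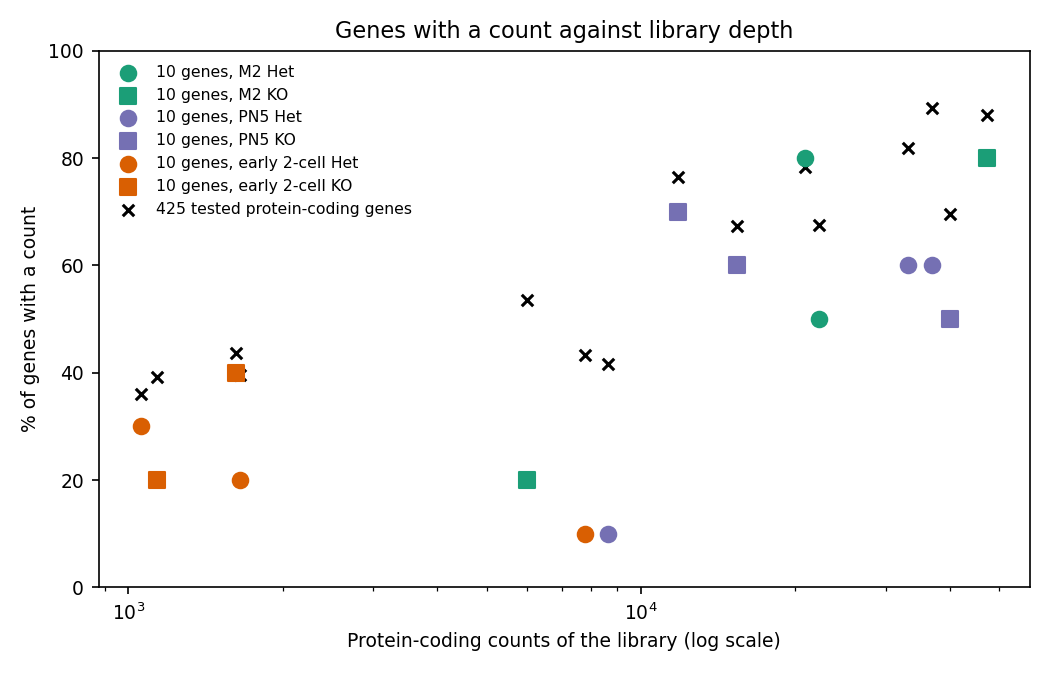
Percentage of genes with a count (y axis) against the protein-coding counts of a library (x axis, log scale), for the 10 genes (circles Het, squares KO, coloured by stage) and for the 425 tested protein-coding genes (crosses). Between 1 and 8 of the 10 genes had counts in a library, from 1 in PN5 Het replicate 3 and early 2-cell Het replicate 3 to 8 in M2 Het replicate 1 and M2 KO replicate 2.

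The summed share of the 10 genes was 1.53 ± 0.992% of protein-coding counts (SD, n = 15). M2 eggs were at 1.93 ± 0.544% (Het, n = 2) and 1.59 ± 0.857% (KO, n = 2), and PN5 zygotes at 1.29 ± 1.03% (Het, n = 3) and 2.43 ± 0.499% (KO, n = 3). Early 2-cell embryos were at 0.440 ± 0.308% (Het, n = 3) and 1.73 ± 1.82% (KO, n = 2). PN5 KO ran from 1.94% to 2.94% and PN5 Het from 0.302% to 2.36%, so the groups overlapped. Early 2-cell KO rested on replicate 1 (3.02%), since replicate 2 was at 0.440%, inside the Het range of 0.141% to 0.755%. Without Luc7l3 and Zrsr2 the other 8 genes were at 0.276% to 0.651% as group means. On the log2 scale the KO minus Het difference of the summed share was -0.36 at M2, 1.33 at PN5 and 1.69 at the early 2-cell stage, where the SD within groups was 1.16. Leaving out single libraries moved the M2 difference to between -0.93 and 0.22, and its sign turned without M2 KO replicate 1. At PN5 it ran from 0.52, without Het replicate 3, to 1.99, without Het replicate 2. At the early 2-cell stage it ran from 0.36, without KO replicate 1, to 3.02, without KO replicate 2.

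**Figure D3:**
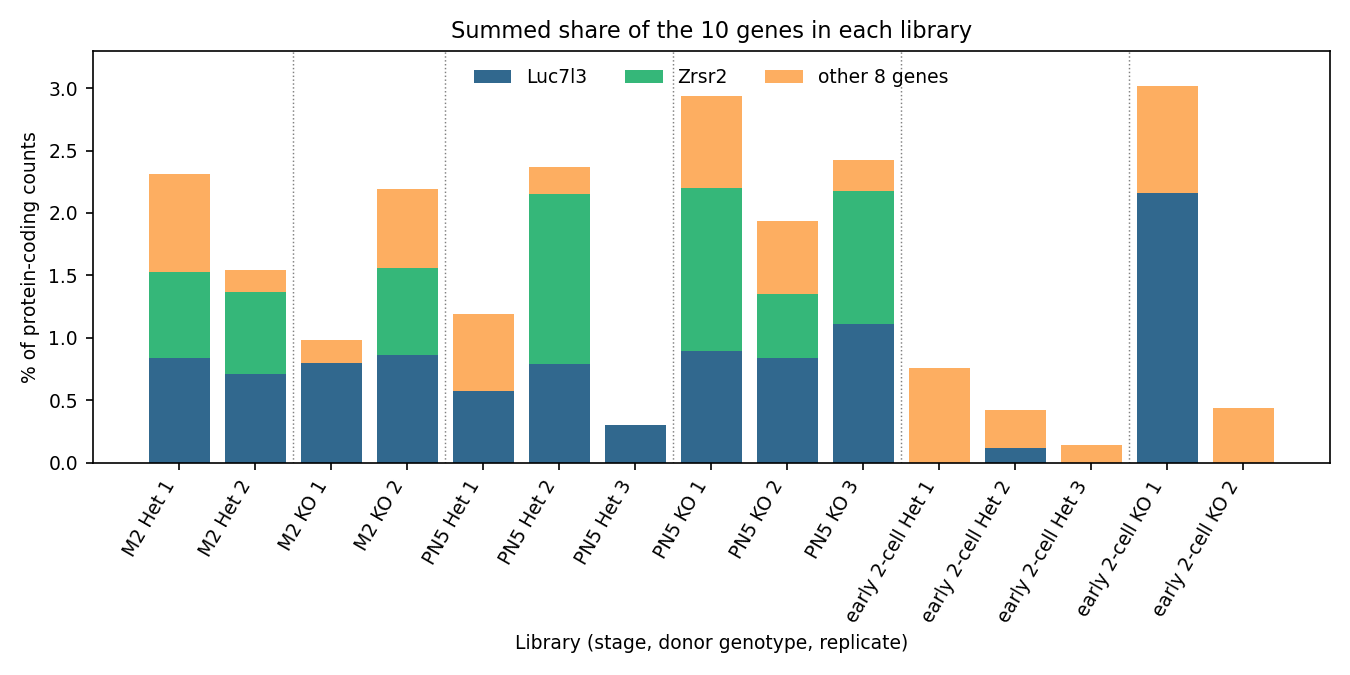
Share of protein-coding counts (y axis, percent) taken by Luc7l3, Zrsr2 and the other 8 genes together (stacked bars) in each of the 15 libraries (x axis). Zrsr2 is missing from 3 of the 10 egg and zygote bars and from all 5 early 2-cell bars, and the tallest early 2-cell bar is KO replicate 1, at 3.02%.

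For KO against Het in M2 eggs, Sart3 was the gene whose counts lay in KO alone. Its mean of 0.163 ± 0.0283% (SD, n = 2) was at least 23.5-fold above Het, taking 0 as 3 counts over the group. Fold limits here and below cover counting error in the group at 0, not that in the other group, and not the spread among libraries. In egg and zygote libraries 40 of 46 zeros lay where the gene's own share would have given more than 3 counts, so differences may be smaller. Rbm6 was at 0 in KO and at 0.0494 ± 0.0699% in Het, at least 8.80-fold lower in KO, on 1 library. Sart3 and Sltm, 2 of the 10 genes, had groups that did not overlap, which held for 22.8% of the 425 protein-coding genes tested. By edgeR's quasi-likelihood test 0 of the 495 genes tested (0.0%) passed a Benjamini-Hochberg adjusted p of 0.05, 6 genes (1.21%), Sart3 among them, had an unadjusted p under 0.05, and limma-voom called 0 and DESeq2 2 genes (0.404%), none of the 10. The adjusted p was 1 for Sart3 and for Rbm6.

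In PN5 zygotes, Luc7l3 was at 0.947 ± 0.142% in KO (n = 3) and 0.554 ± 0.244% in Het (n = 3) and was the 1 gene of the 10 whose groups did not overlap, against 7.06% of the 425 genes. Its log2 fold change was 0.62 (SE 1.33, adjusted p = 1 by edgeR). Rbm6 at 0.0767 ± 0.0666% and Sart3 and Safb2, each at 0.104 ± 0.180%, had counts in KO and 0 in Het. The KO means were 20.1-fold (Rbm6) and 27.3-fold (Sart3, Safb2) above 3 counts over the Het group, a limit that leaves out the spread among libraries. Nsrp1 was at 0 in KO and 0.0379 ± 0.0409% in Het, at least 8.50-fold lower. PN5 Het replicate 3, in which 41.6% of the 425 genes had a count, is 1 of the Het zeros of each of these 4 genes and the lowest Luc7l3 value. Without it the Luc7l3 groups still did not overlap, and the smallest adjusted p in the comparison was 0.735 by edgeR. Sart3 and Safb2 rest on PN5 KO replicate 1, without which both groups were at 0. The unadjusted p was under 0.05 for these 4 genes and for 7.07% of the 495 genes tested. Their adjusted p was 0.697 by edgeR, the smallest in this comparison, and 0.0% of genes passed (35 at unadjusted p, 2 or 0.404% called by DESeq2, 0 by limma-voom). The 6 detected cumulus and granulosa markers together were at 0 to 0.0298% in PN5 Het and at 0.0847% to 0.888% in PN5 KO, and their part in these differences was not tested.

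In early 2-cell embryos, Sltm was at 0.299 ± 0.0747% as the mean of 2 KO libraries and at 0 in all 3 Het libraries, at least 10.5-fold higher, on 8 counts. Luc7l3 held 35 of 2759 protein-coding counts in KO and 2 of 10509 in Het. The pooled ratio was 66.7, with an exact 95% interval of 17.1 to 572.0 that covers counting error only and takes reads as independent. All 35 counts lay in KO replicate 1, and without that library the log2 fold change of Luc7l3 went from 4.52 to -4.62. Sltm was the 1 gene of the 10 whose groups did not overlap, against 11.1% of the 425 genes. For both genes the adjusted p was 0.892 by edgeR, which called 0.0% of genes (0.0174% without the low-count filter). Unadjusted p was under 0.05 for these 2 genes and for 25 genes in all (5.05%), and DESeq2 called 4 (0.808%), none of the 10, and limma-voom 0. The test of how far the KO effect differs from one stage to another called 0.0% of genes by edgeR for each pair of stages, also by DESeq2, and the smallest adjusted p of the 10 genes was 0.837. Unadjusted p was under 0.05 for Rbm6 and Safb2 between M2 and PN5 (5.25% of genes) and for Nsrp1, Rbm6 and Sltm between PN5 and early 2-cell (5.25%). Between M2 and early 2-cell it was so for Sltm (3.64%). Without the low-count filter 0.0347% of genes were called between PN5 and early 2-cell, none of the 10.

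Between stages the fit moved the median of all 495 genes, by -1.90 on the log2 scale from PN5 to early 2-cell embryos in Het and by -1.60 in KO, and by 0.10 and 0.13 from M2 to PN5. Changes to the early 2-cell stage are to be read against that shift. Successive comparisons share the PN5 libraries. In bulk libraries fewer cells and less RNA per cell cannot be told apart.

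From M2 to PN5 in Het, Rbm6 and Safb2 went from counts in 1 of 2 M2 libraries each to 0 in all 3 PN5 libraries, at least 12.97-fold and 21.3-fold lower. The cumulus and granulosa markers were at 0.765% and 0.0404% in M2 Het and at 0.0298%, 0 and 0 in PN5 Het. The Safb2 counts lay in the library at 0.765% and those of Rbm6 in the library at 0.0404%, and the part of these markers in the differences was not tested. By share of protein-coding counts, Sltm was lower in every PN5 Het library than in both M2 Het libraries. It was the 1 gene of the 10 without overlap, against 16.5% of the 425 genes. In KO, Nsrp1 went from 51 counts in M2 replicate 2 to 0 in all 3 PN5 libraries, at least 12.1-fold lower, and Rbm6 from 0 to counts in 2 of 3, at least 13.7-fold higher. The same markers were at 0 and 0.116% in M2 KO and at 0.0847% to 0.888% in PN5 KO, and their part was not tested. No gene of the 10 separated these KO groups, against 8.0% of the 425 genes. The smallest adjusted p of the 10 was 0.855 in Het and 1 in KO by edgeR, which called 0.0% of genes in both. Unadjusted p was under 0.05 for Rbm6 and 17 genes in all (3.43%) in Het and for Nsrp1 and 21 genes in all (4.24%) in KO. DESeq2 called 4 (0.808%) and 1 (0.202%), none of the 10, and limma-voom 0.

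From PN5 to early 2-cell embryos in Het, Luc7l3 went from 499 of 78732 protein-coding counts to 2 of 10509. The pooled ratio was 33.3, with an exact 95% interval of 9.17 to 275.8 for counting error that takes reads as independent. The log2 fold change of Luc7l3 was -5.22 (SE 1.74, adjusted p = 0.183 by edgeR), beside the median of -1.90 over all genes. Its groups did not overlap, as for 15.8% of the 425 genes. Zrsr2 was at 0 in all 3 early 2-cell Het libraries against 0.455 ± 0.788% in PN5 Het, at least 15.9-fold lower (adjusted p = 0.226 by edgeR). Its PN5 level came from replicate 2 alone. Sltm was at 0 against 0.0297 ± 0.0266%, where the limit of 3 counts over the group, 0.0285%, allows nearly the same level (adjusted p = 0.246 by edgeR). By edgeR 0 of 495 genes (0.0%) passed, and these 3 genes were among 97 (19.6%) with an unadjusted p under 0.05. Limma-voom called 11 genes, none of the 10, and edgeR without the low-count filter 0.0521% of genes, Zrsr2 among them (adjusted p = 0.0262).

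In KO, Zrsr2 was at 0.962 ± 0.404% in PN5 zygotes (n = 3) and 0 in both early 2-cell libraries, at least 8.85-fold lower (adjusted p = 0.554 by edgeR). The cumulus and granulosa markers were at 0.318%, 0.0847% and 0.888% in these PN5 libraries and at 0 in both early 2-cell libraries, and their part in the difference was not tested. Nsrp1 was at 0 in the PN5 libraries and at 0.216 ± 0.305% in early 2-cell embryos, at least 48.3-fold higher on the 7 counts of 1 library (adjusted p = 0.554 by edgeR). Zrsr2 and Sltm had groups that did not overlap, the first lower and the second higher in early 2-cell embryos, against 22.8% of the 425 genes. By edgeR 0 of 495 genes (0.0%) passed, 0.0174% without the low-count filter, and Zrsr2 and Nsrp1 were among 43 (8.69%) with an unadjusted p under 0.05. DESeq2 called Zrsr2 in both genotypes (adjusted p = 5.6e-09 in Het and 1.2e-06 in KO) and Luc7l3 in Het (adjusted p = 0.0306), where it called 8.08% of the 495 genes in Het and 2.63% in KO. From PN5 to early 2-cell, DESeq2 gave no adjusted p for Rbm6, Safb2 and Srrm1 in either genotype. In KO it also gave none for Hnrnpu, Nsrp1, Sart3 and Sltm, and Srrm1 had none in any comparison. With the early 2-cell groups at 0, the log2 fold change of Zrsr2 depended on the tool. It was -21.2 (Het) and -20.8 (KO) by DESeq2, and -9.65 and -10.5 by edgeR. By limma-voom it was -1.51 (adjusted p = 0.831) and -6.12 (adjusted p = 0.588). Over the settings tried the adjusted p for Zrsr2 ran from 5.6e-09 to 1 in Het, where the 1 came without PN5 Het replicate 2, and from 1.2e-06 to 0.837 in KO. For Luc7l3 in Het it ran from 0.0306 to 0.446.

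Beside these 10 genes, 242 other splicing genes were taken in 12 lists by textbook membership. Of the 241 in the table, 108 had a count in some library and 39 were tested. By edgeR 0 of the 39 passed in either direction in any of the 7 comparisons, as did 0 of all 495 genes (0.0%), and at an unadjusted p under 0.05 there were 0 to 5 of the 39. DESeq2 and limma-voom also called 0 of the 39 in each comparison. From PN5 to early 2-cell embryos, where DESeq2 called 8.08% of all genes in Het and 2.63% in KO, it gave an adjusted p for 27 and 13 of the 39. Their summed share was 4.15 ± 0.924% (Het) and 3.01 ± 1.95% (KO) at the M2 stage. It was 4.32 ± 1.04% (Het) and 4.40 ± 1.11% (KO) at PN5, and 5.30 ± 2.04% (Het) and 5.18 ± 1.47% (KO) at the early 2-cell stage. The ranges of all 6 groups overlapped. From PN5 to early 2-cell embryos in Het, 30 of the 39 had a fold change below 0, with a median of -2.52 on the log2 scale, beside 341 of all 495 genes and a median of -1.90. The 10 genes had 7 below 0 and a median of -1.49.

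Of all 21448 protein-coding genes of the table, 3795 (17.7%) had a count in some library. The counts of each list, members included, are read beside that share, and differences between lists were not tested. The members were chosen with these counts known and all had counts, so they raise the shares of their lists. Without the members, 108 of the 241 genes of all lists (44.8%) had a count. SR and SR-related proteins had counts for 31 of 41 genes, 17 of them tested. Beside the members they were led by Srrm2 (825 counts), a large speckle protein, by Rsrc1 (620 counts in all 15 libraries) and by Arglu1 (442). SAP-domain and nuclear matrix proteins had counts for 8 of 9 genes, and 4 of these 8 are members. They were led by the member Acin1 (220 counts), with Hnrnpul2 at 202 and Matr3 at 65. The list of U1 and the 5′ splice site had counts for 8 of 11, led after Luc7l3 by Rbm25 (1658 counts), a regulator that contacts U1. The Sm and LSm rings, the protein cores of the snRNPs, had counts for 2 of 14 genes (14.3%), near the 17.7% of all protein-coding genes, with 15 counts in all. The U4/U6.U5 list had counts for 4 of 17, of which Sart3 held 128 of 165, and Prpf8 and Prpf3 were at 0. The exon junction list had counts for 3 of 9, hnRNP proteins for 16 of 32, and the Prp19 complex and catalytic step list for 12 of 39, led by Ik (367). The U2 list had counts for 14 of 27, with Htatsf1 at 239 and Sf1 at 117. The minor spliceosome list had counts for 5 of 10, of which Zrsr2 held 90.1% and Zcrb1 140 counts. SR protein kinases had counts for 6 of 8, led by Srpk2 (562), and the other splicing regulators for 18 of 43, led by Rbm27 (900 counts in all 15 libraries).

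**Figure D4:**
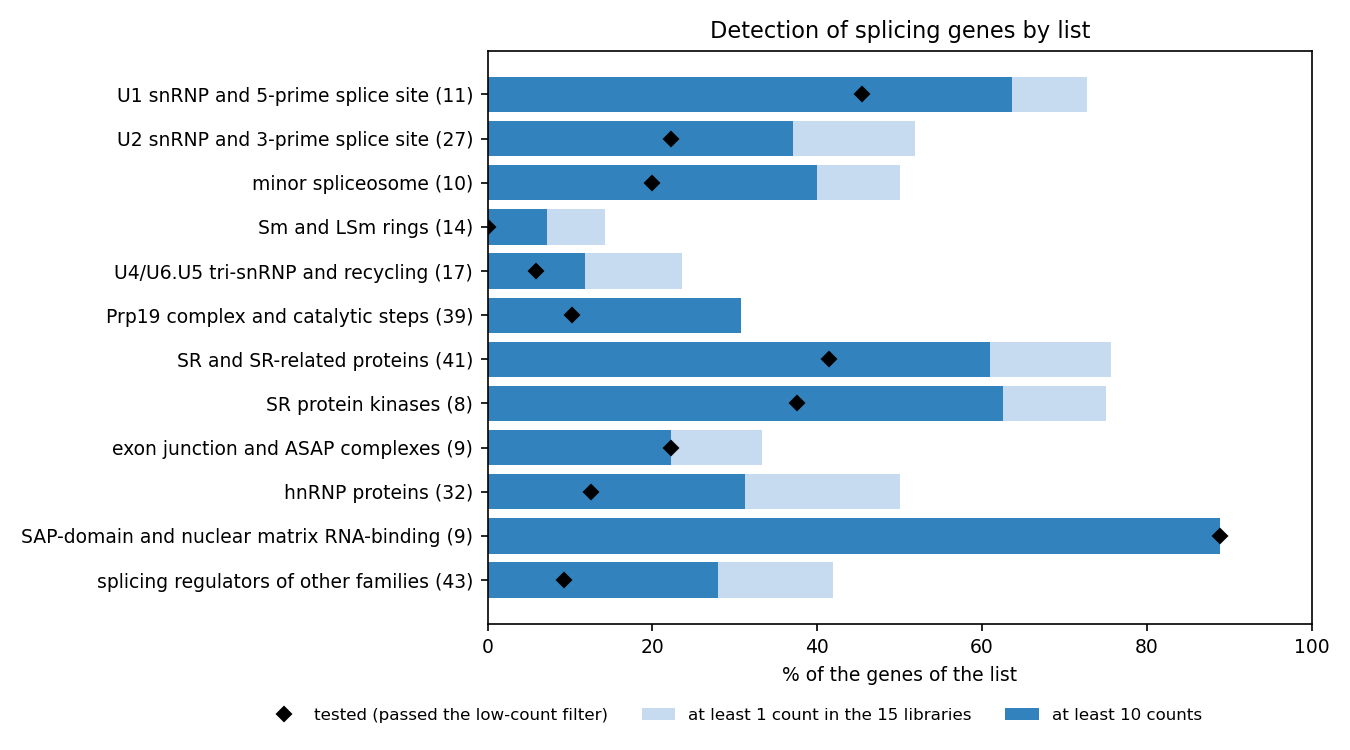
Percentage of the genes of each splicing list (y axis, number of genes in parentheses) with at least 1 count in the 15 libraries (light bars), with at least 10 counts (dark bars) and tested (diamonds). The list of SAP-domain and nuclear matrix proteins, which holds 4 of the 10 genes, has 8 of 9 genes with counts. That of the Sm and LSm rings, which holds 0 of the 10, has 2 of 14, beside 17.7% of all protein-coding genes with at least 1 count. The 10 genes were chosen with these counts known.

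Rbm25, of the U1 list, had counts in all 15 libraries. M2 eggs were at 0.719 ± 0.140% (Het) and 0.405 ± 0.00643% (KO), PN5 zygotes at 0.973 ± 0.461% and 0.459 ± 0.155%, and early 2-cell embryos at 1.16 ± 1.01% and 1.22 ± 0.977%. By edgeR its log2 fold change for KO against Het was -0.996 (SE 1.15, unadjusted p = 0.400) in M2 eggs. It was -1.26 (SE 0.946, unadjusted p = 0.202) in PN5 zygotes and -0.371 (SE 1.06, unadjusted p = 0.732) in early 2-cell embryos. Srrm2 had 4 counts in 1 early 2-cell Het library and 5 in 1 of the KO libraries.

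Over the 15 libraries the pattern most like that of Luc7l3, by Pearson correlation of log2(CPM + 1) among 438 tested genes, was that of Arid4b (r = 0.89), then Nefh (0.89) and Golga4 (0.86). For Zrsr2 it was that of Phf14 (0.82), Canx (0.82) and Zc3h13 (0.78), and for Acin1 that of Kdm1a (0.80), Setd5 (0.74) and Son (0.74). These values describe points that share library depth and stage.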

How the data were processed

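The deposited values were estimated counts per gene from the authors, in 1 table of whole numbers with no scaling by library. The submitters' processing notes name cutadapt, STAR (2.7.6a), StringTie (2.1.4), deepTools (3.5.1) and the build GRCm38. The way the counts were made was not given in the sources used here, nor was the treatment of rRNA or of reads that match several genes. Rounding on reading left the estimated counts as deposited. Per the labels' protocols, RNase I (100 units, 45 min) came before a pull-down of 4 h and 22 PCR cycles. No molecular identifiers are named, so reads may not be independent molecules. Limits and intervals take reads as independent, leave out the spread among libraries and may be too narrow.

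Protein-coding genes were taken from RefSeq GRCm38.p6 (39101 genes matched by symbol, 165 by an older symbol). Library totals ran from 93222 to 1201146 counts, most of them rRNA, and rRNA rows stayed in the library sizes of the fit.

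Members, lists and tests were chosen with earlier results of these data known. Counts were fitted in edgeR 4.0.16 (R 4.3.3): filterByExpr (minimum count 10), TMM factors, 1 robust quasi-likelihood model of 6 group means over 15 libraries, and Benjamini-Hochberg adjustment over the 495 genes tested. The SE is the fold change divided by the square root of its F statistic. The fit was run on simulated data in which every gene had the same dispersion (spread beyond counting error). That setting holds no genes that switch between high counts and 0, as Zrsr2 does, so it could not check the fit for them. Fold limits set a group at 0 to 3 counts over the group. Named fold changes were those of members with an unadjusted p under 0.05, or the 2 with the smallest p, per comparison, and Luc7l3 in PN5 zygotes was added after its values were seen. Of the other splicing genes up to 3 per list with the highest mean share were eligible to be named, and genes named at 0 or as relatives were added after their values were seen.

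Alternatives were DESeq2 1.42.0, limma-voom (limma 3.58.1), other scalings and filters, a replicate block and leaving out each library. The replicate numbers were not taken to pair libraries: deviations of same-numbered Het and KO libraries correlated across genes at -0.155 in M2 eggs, at -0.154, -0.324 and 0.104 in PN5 zygotes, and at -0.0375 and 0.0254 in early 2-cell embryos.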

Additional observations from a re-analysis of the deposited data

Results flagged for a closer look

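In shares of protein-coding counts, Sltm was lower in KO in M2 eggs and higher in KO in early 2-cell embryos, without overlap between genotypes. Groups without overlap, in either direction, were found for 22.8% and 11.1% of the 425 protein-coding genes tested. In shares of all counts the M2 genotypes overlapped. Het replicate 2 had 14 of 1039092, KO replicate 2 had 27 of 1066196 and KO replicate 1 had 0. Sltm had a log2 fold change of -1.21 in M2 eggs (SE 1.88, unadjusted p = 0.529 by edgeR). In M2 eggs it was at 0.0285% of protein-coding counts in KO and 0.0697% in Het, as means of 2 libraries each, and in early 2-cell embryos at 0.299% in KO (n = 2) and 0 in Het (n = 3), which allows up to 0.0285% over the group. The test of the difference between those KO effects, chosen after seeing the data, did not pass (log2 difference 8.32, SE 3.28, adjusted p = 1.00 by edgeR). The early 2-cell values rest on 8 counts, and the M2 KO mean holds a library at 0 whose own limit is 0.050%. Leaving out single libraries put the log2 fold change of Sltm for early 2-cell KO against Het between 6.89 and 7.36 (7.11 with all libraries), with an adjusted p of 0.816 to 1 by edgeR.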

How the results depend on the processing

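By edgeR 0 genes were called in each comparison, and the other scalings, the higher count minimum and the replicate block left every count at 0. The block made 0 calls in all comparisons, as did the block with the M2 numbers crossed, chosen after seeing the data because the M2 correlation was -0.155. DESeq2 called 2 genes for KO against Het in M2 eggs, 2 in PN5 zygotes and 4 in early 2-cell embryos, 4 and 1 from M2 to PN5 in Het and KO, and 40 and 13 from PN5 to early 2-cell. Limma-voom called 11 from PN5 to early 2-cell in Het. Without the low-count filter edgeR called 1 for early 2-cell KO against Het, 3 and 1 from PN5 to early 2-cell in Het and KO, and 2 for the KO effect early 2-cell minus PN5. Leaving out single libraries gave 0 to 1 calls for early 2-cell KO against Het and from PN5 to early 2-cell in Het, the 1 in both without early 2-cell Het replicate 2. The fold change of Luc7l3 for early 2-cell KO against Het ran from -4.62 without early 2-cell KO replicate 1 to 9.13 without Het replicate 2, on the log2 scale. Without Luc7l3 the log2 difference of the summed share was 3.01 for KO against Het in PN5 zygotes, -2.64 from M2 to PN5 in Het and 0.93 from PN5 to early 2-cell in Het, where it was -1.34 with it. All 26 counts of the 10 genes in PN5 Het replicate 3 lay on Luc7l3. Without Luc7l3 that library was at 0, scored as 0.5 counts, and it enters each of these differences. From PN5 to early 2-cell the summed difference in TMM-scaled CPM was -2.62 in Het and -2.49 in KO. In shares of all counts that in KO was -2.16, against -0.98. Leaving out single libraries moved the summed difference to between 0.36 and 3.02 for early 2-cell KO against Het and between -2.31 and 0.35 from PN5 to early 2-cell in KO. Apart from the values that leave out a library or a gene, the cause was not tested. Other scalings put the median change of all genes from PN5 to early 2-cell between -1.49 and -0.82 in Het and between -1.30 and -0.40 in KO. The count minimum of 20 gave values only for genes with that mean. Depth limits the early 2-cell values most, at 1059 to 7795 protein-coding counts a library.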
